A study of Mus musculus with 9 samples.

Results

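The 3 libraries of primary mouse articular chondrocytes given bleomycin and then ST045849 were compared with the 3 libraries given bleomycin and then DMSO, 6 of the 9 libraries of the series. Articular chondrocytes are the cells that make and maintain the cartilage of joints. Every culture in the series, controls included, had first been digested for 4 h without serum, using 4 U/mL of type I-S hyaluronidase, and was grown in 10% serum under 3% oxygen. Both groups compared here were exposed for 24 h to 50 µg/mL of bleomycin, which cuts DNA strands. For the next 5 days one group had DMSO in its medium (the bleomycin group) and the other 20 µM ST045849 (the inhibitor group), with medium changes every 48 h. The remaining 3 libraries, PBS followed by DMSO, are the vehicle group. They are quoted for level, enter the check of replicate numbers and are added in fits of all 9 libraries. The labels do not state whether libraries of a group stem from different mice or dishes, nor the mouse strain, and p-values therefore reflect only how far these libraries spread, which may be technical. The series asks what O-GlcNAcylation does in chondrocytes driven towards senescence. ST045849 was given at 1 dose, and no library of the series came from cells given ST045849 without bleomycin. Of 55450 genes listed, 12180 were tested, those with 1 FPKM or more in 3 or more of these libraries.

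ST045849 is used to block O-GlcNAc transferase. That enzyme, encoded by Ogt, attaches single N-acetylglucosamine residues to serines and threonines of nuclear and cytoplasmic proteins, using the sugar nucleotide that the hexosamine pathway makes, and O-GlcNAcase, encoded by Oga, takes them off. ATF4 is a transcription factor of the integrated stress response: its translation increases when the initiation factor eIF2 is phosphorylated, for example on shortage of an amino acid, and it switches on amino acid synthesis, amino acid uptake and the charging of tRNAs. NRF2 is the transcription factor that switches on detoxifying and antioxidant genes, several of which also handle heme and iron.

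The replicate numbers 1 to 3 in the labels matter for what follows, because the 3 inhibitor libraries did not shift equally. On the first principal component of the 6 libraries, which held 60.3% of the variance, bleomycin libraries 1, 2 and 3 lay at -36.82, -13.86 and -26.11. Inhibitor libraries 2 and 3 lay at 56.71 and 32.15, but inhibitor library 1 lay at -12.07, next to the bleomycin libraries. Deviations from the group means correlated across genes between the libraries of equal number (0.471, 0.486 and 0.501), while those of unequal numbers in these 2 groups did so at -0.324 to -0.17. Deviations cancel out within each group, so the negative values follow in part from the positive ones and are no separate sign of pairing. The vehicle libraries did not follow the numbers in this way: vehicle library 1 correlated at -0.075 with bleomycin library 1 and at -0.528 with inhibitor library 1, vehicle library 2 at -0.025 and -0.283 with those numbered 2, and vehicle library 3 at 0.548 and 0.425 with those numbered 3. RNA of the sex chromosomes also varied with the number. Eif2s3y, a Y-linked gene of a translation initiation factor subunit, stood at 15.1 to 19.8 FPKM in the vehicle, bleomycin and inhibitor libraries numbered 1, at 4.23 to 5.53 FPKM in those numbered 2 and at 11.0 to 13.6 FPKM in those numbered 3, with no overlap between numbers. The Y-linked genes Kdm5d, Uty and Ddx3y were likewise lower in number 2 than in numbers 1 and 3 within each of the 3 groups. Xist, the RNA of the inactive X chromosome, was above 0 in the same libraries, at 2.71 FPKM in inhibitor library 1 and up to 37.3 FPKM in vehicle library 2, so each library held RNA of both sexes. Apart from Eif2s3y (0.02 ± 0.19) these genes were lower with the inhibitor: Xist fell by 1.29 ± 0.19 and Ddx3y by 0.93 ± 0.22 in the paired fit defined below, whichever pair was left out, and Uty fell by 0.62 ± 0.16. The sex-linked genes were picked after their values were seen. The labels state no pairing, and numbers also correlated across groups where they were unequal, at 0.574 for vehicle library 1 with inhibitor library 2.

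**Figure D1:**
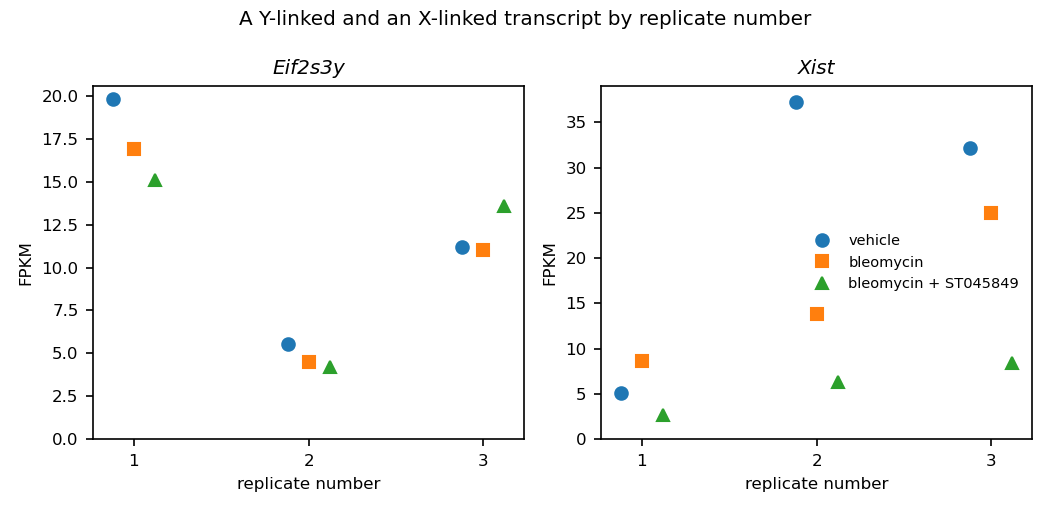
FPKM of Eif2s3y (Y-linked, left) and Xist (X-linked, right) in the 9 libraries, placed by replicate number, with 1 symbol per treatment group. Eif2s3y lies at 15.1 to 19.8 in number 1, 4.23 to 5.53 in number 2 and 11.0 to 13.6 in number 3 whatever the treatment, while Xist is lowest in number 1 of each group.

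Fits with and without this pairing are therefore given with limma on log2(FPKM + 1), a scale that understates the change of low genes, and with p-values adjusted by Benjamini-Hochberg over all genes tested. Without the pairing, 0 of 12180 genes (0.0%) passed an adjusted p of 0.05, although 2523 had an unadjusted p under it, and the smallest adjusted p was 0.169. With the replicate number as a block, which compares each inhibitor library with the bleomycin library of its number, 1467 genes (12.0%) were higher and 1029 (8.45%) lower. In the text "rose" and "fell" mean a pass in this paired fit, and each log2 difference is followed by its standard error from it. Counts over a list from this fit are to be read beside the 12.0% and 8.45% of all genes tested. Those from another fit are to be read beside the counts of all genes in that fit, given below. With TPM scaling, without number 2 or 3, or with length removed, fewer genes were called in each direction. With the vehicle libraries added, a fit of all 9 libraries with the block called 0 genes (smallest adjusted p 0.113, with 2904 at an unadjusted p under 0.05), so every paired call rests on the fit of 6 libraries. The paired counts also depended on how the libraries were scaled and on which pair was left out. After scaling to median ratios 924 rose and 1033 fell, whereas TPM values gave 58 up and 366 down, where the median over all tested genes was -0.19 in place of 0.06. The counts were 2380 up and 1778 down without the libraries of number 1, 171 up and 249 down without number 2, and 126 and 246 without number 3. The unpaired fit without inhibitor library 1 called 1565 and 865, and 1828 of the 2496 genes called with the block were called there in the same direction.

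The paired calls followed gene length, so a second paired fit was made after the length trend of each library had been removed, which also takes out any difference in overall scale between libraries. There 124 genes (1.02%) were higher and 126 (1.03%) lower, of which 111 and 113 were also called, in the same direction, in the paired fit. Genes that passed both fits are named as such below. These calls too leaned on the larger pairs, with 897 up and 887 down without number 1, but 2 and 3 without number 2 and 31 and 60 without number 3. Of the 2496 genes called in the paired fit, 198 were called in the same direction whichever pair was left out. Atf4, Asns, Slc7a3, Hmox1, Angptl4, Smpd3 and Col6a3, described below, are among them. A paired fit with 1 pair left out had 1 residual and 14.3 to 71.1 prior degrees of freedom. Its calls therefore lean on variances pooled over all genes more than on the spread of each gene.

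Genes of the ATF4 response and of amino acid synthesis were mostly higher with the inhibitor. Atf4 itself (chromosome 15, 80255184 to 80257541 in GRCm38) stood at 124, 104 and 80.3 FPKM in bleomycin libraries 1, 2 and 3 and at 247, 279 and 488 FPKM in inhibitor libraries 1, 2 and 3. All 3 inhibitor libraries thus lay above all 3 bleomycin libraries, and Atf4 rose by 1.66 ± 0.27 (adjusted p = 0.00845 paired, 0.0461 with length removed, and 0.229 unpaired). Of the 19 genes on the list of ATF4 and related stress regulators 13 rose and none fell, 16 were higher, and 7 passed both fits. The median of the list was 0.88, beside 0.06 for all genes tested, and 0.35, 1.42 and 1.04 in pairs 1, 2 and 3. With TPM scaling the list's median was 0.62, beside -0.19 for all genes tested. There 7 members rose in the paired fit, beside 58 of all 12180 genes. With length removed, 5 members passed without number 3 but 0 without number 2. Since RNA came from whole cultures, a change in RNA per cell and a change in the share of cells that make it cannot be told apart, here and below.

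Asns, which makes asparagine from aspartate and glutamine (chromosome 6, 7675169 to 7693254), stood at 44.7, 52.0 and 59.5 FPKM with bleomycin and at 94.6, 206 and 162 FPKM with the inhibitor. Its vehicle levels were 116, 55.7 and 94.5 FPKM, within the span of the other groups. The groups compared did not overlap, and Asns rose by 1.49 ± 0.21 (paired adjusted p = 0.00574, length-removed 0.0307, unpaired 0.229). Of 14 genes of asparagine, glutamine and proline metabolism 8 rose, with a median of 0.66, and 2 rose without number 2, without number 3 or with TPM scaling. Cth, which makes cysteine from cystathionine, stood at 6.08, 6.95 and 9.03 and then at 14.5, 33.6 and 36.6 FPKM (1.72 ± 0.22). Asns, Cth and Bcat1, a branched-chain aminotransferase, passed both fits.

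The regulators of the list moved by similar amounts. Trib3, a pseudokinase that ATF4 induces and that restrains it, went from 21.4, 34.6 and 34.6 FPKM to 42.2, 114 and 83.6 FPKM (1.29 ± 0.20, paired adjusted p = 0.00738). Chac1, an enzyme that degrades glutathione, rose from 17.2, 42.4 and 44.3 to 49.4, 160 and 90.1 FPKM (1.46 ± 0.21), and Nupr1, a small stress-induced chromatin protein, from 128, 119 and 234 to 276, 709 and 637 FPKM (1.70 ± 0.27). In both the groups did not overlap. The secreted stress hormones on the list rose as well. Fgf21 stood at 4.49, 4.20 and 7.14 FPKM with bleomycin and at 9.25, 49.8 and 29.9 FPKM with the inhibitor (2.04 ± 0.33), with its smallest step in pair 1. Gdf15 stood at 7.93, 8.90 and 8.89 and then at 15.9, 41.5 and 31.4 FPKM (1.58 ± 0.23). Eif4ebp1, the translation repressor 4E-BP1, rose from 33.4, 44.7 and 46.8 to 66.8, 188 and 133 FPKM. Each of these 6 genes passed both fits, with length-removed adjusted p from 0.0335 to 0.0499. Ddit3, which encodes the stress factor CHOP, rose less in number 1, from 65.8 to 80.2 FPKM, than in numbers 2 and 3, from 84.9 to 242 and from 85.2 to 182 FPKM. It rose in the paired fit (0.95 ± 0.24, adjusted p = 0.0224) but not with length removed (0.121), and the paired call was lost without number 2 or 3 (0.114 and 0.117). Atf3, Atf5, Ddit4, Cebpb and Ppp1r15a also rose in the paired fit alone. On the list for chaperones of the endoplasmic reticulum and the unfolded protein response, by contrast, 1 of 23 genes rose (Herpud1), none fell and the median was -0.02; the difference between the lists was not tested.

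Promoter sequences are shown for 4 of these genes, because ATF4 binds a known element, the C/EBP-ATF response element, and for 1 gene with the antioxidant response element that NRF2 binds. The letters TGATGNAA were searched for the first and TGACNNNGC for the second, on both strands, in RefSeq windows (GRCm38.p6) from 250 bases before to 50 after each annotated start. The letters of the second can also hold those of an AP-1 site. Each stretch of 120 bases below lies before the RefSeq start, reads 5′ to 3′ on the strand of the gene and has the matched letters in capitals. In Chac1, Nupr1, Fgf21 and Prdx1 the match is on the opposite strand, so the capitals are its reverse complement. For Asns it is chr6:7693210-7693329, for Chac1 chr2:119350993-119351112, for Nupr1 chr7:126625517-126625636, for Fgf21 chr7:45615566-45615685 and for Prdx1 chr4:116685410-116685529, with Chac1 and Prdx1 on the plus strand and the others on the minus strand.
Asns: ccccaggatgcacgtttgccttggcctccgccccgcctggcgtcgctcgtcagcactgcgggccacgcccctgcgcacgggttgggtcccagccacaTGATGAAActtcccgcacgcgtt
Chac1: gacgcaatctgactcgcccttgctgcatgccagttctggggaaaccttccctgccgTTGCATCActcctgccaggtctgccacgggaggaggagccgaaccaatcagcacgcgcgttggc
Nupr1: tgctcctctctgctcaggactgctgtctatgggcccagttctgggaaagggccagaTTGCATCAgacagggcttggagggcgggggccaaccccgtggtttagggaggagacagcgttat
Fgf21: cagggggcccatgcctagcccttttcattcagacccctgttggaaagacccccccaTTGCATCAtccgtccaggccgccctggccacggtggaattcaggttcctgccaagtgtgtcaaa
Prdx1: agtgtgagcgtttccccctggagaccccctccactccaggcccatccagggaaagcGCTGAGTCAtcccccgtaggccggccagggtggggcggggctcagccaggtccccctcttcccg
The first letter of the match lies 23 bases before the RefSeq start in Asns, 193 in Chac1, 110 in Nupr1, 139 in Fgf21 and 133 in Prdx1. The span of Asns given above comes from GENCODE and begins upstream of that start, so the Asns match lies within it. Over the 5 lists of ATF4 and amino acid supply, 63 of 83 tested genes had a window, and 16 of these (25.4%) held TGATGNAA, against 241 of 9227 tested genes with a window (2.61%). Among their members that rose 12 of 30 held it, and among those not called 4 of 31. The antioxidant letters were in 13 of 28 windows of the NRF2 list (46.4%) and in 1578 of all 9227 (17.1%), and in 6 of the 13 windows of members that rose. A match is a description of the window, not a bound site, and the lists hold textbook targets of these factors.

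The pathway that makes serine from a glycolytic intermediate was higher at each of its 3 steps. Phgdh, the entry enzyme, stood at 26.5, 34.2 and 32.0 FPKM with bleomycin and at 58.6, 152 and 102 FPKM with the inhibitor (1.62 ± 0.22). Psat1, the transaminase, went from 20.0, 29.1 and 25.4 to 51.9, 64.8 and 80.7 FPKM (1.36 ± 0.19) and Psph, the phosphatase, from 16.4, 21.7 and 23.4 to 23.4, 76.0 and 77.0 FPKM (1.31 ± 0.25). The groups lay apart for Phgdh and Psat1, while for Psph inhibitor library 1 reached only the highest bleomycin level. Mthfd2, of the mitochondrial folate cycle, rose almost equally in the 3 pairs, from 32.4, 36.1 and 37.6 to 63.1, 72.5 and 82.9 FPKM (1.02 ± 0.18). These 4 genes passed both fits, and the paired call of Mthfd2 was lost without number 3 (adjusted p = 0.0639). Of 13 genes of serine and one-carbon synthesis 5 rose, with Shmt2 beside them, and Aldh1l1, of the cytosolic folate cycle, fell.

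Transporters moved both ways. Slc7a3, which carries arginine and lysine into the cell (chromosome X, 101079210 to 101086020), stood at 4.20, 4.37 and 5.14 FPKM with bleomycin and at 13.4, 23.7 and 18.6 FPKM with the inhibitor, a rise of 1.78 ± 0.20. Its vehicle levels were 20.3, 13.7 and 14.5 FPKM, so the inhibitor libraries overlapped with vehicle and the bleomycin libraries lay below both. It passed both fits (paired adjusted p = 0.00215 and length-removed adjusted p = 0.0252) and was called whichever pair was left out. The light and heavy chains of the leucine transporter rose together: Slc7a5 from 22.2, 28.1 and 32.9 to 49.2, 82.1 and 63.8 FPKM (1.19 ± 0.19) and Slc3a2 from 69.9, 74.4 and 95.0 to 111, 238 and 224 FPKM (1.18 ± 0.22). In both, no inhibitor library fell within the range of the bleomycin libraries. Of the 17 transporters 5 rose, these 3 together with Slc1a5 and Slc6a9, while Slc7a2 and Slc43a2 fell and the median was -0.04.

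Genes that charge tRNAs in the cytosol were higher almost throughout. Of 20 synthetase genes 19 were higher, 8 rose, none fell and 5 passed both fits (Aars, Cars, Nars, Sars and Tars). Cars, for cysteine, stood at 30.1, 34.5 and 39.7 and then at 48.1, 70.4 and 81.1 FPKM (0.89 ± 0.19), and Nars, for asparagine, at 52.6, 66.8 and 73.7 and then at 87.2, 117 and 134 FPKM (0.79 ± 0.19). The steps were small, and none of the 8 paired calls was kept without number 2 or 3 or with TPM scaling. The median of the list was 0.20 with TPM scaling in place of 0.48. That of all genes tested was -0.19 in place of 0.06, so the list lay 0.39 above it in place of 0.41. Of the 16 mitochondrial synthetases 1 rose, Fars2, and none fell.

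**Figure D2:**
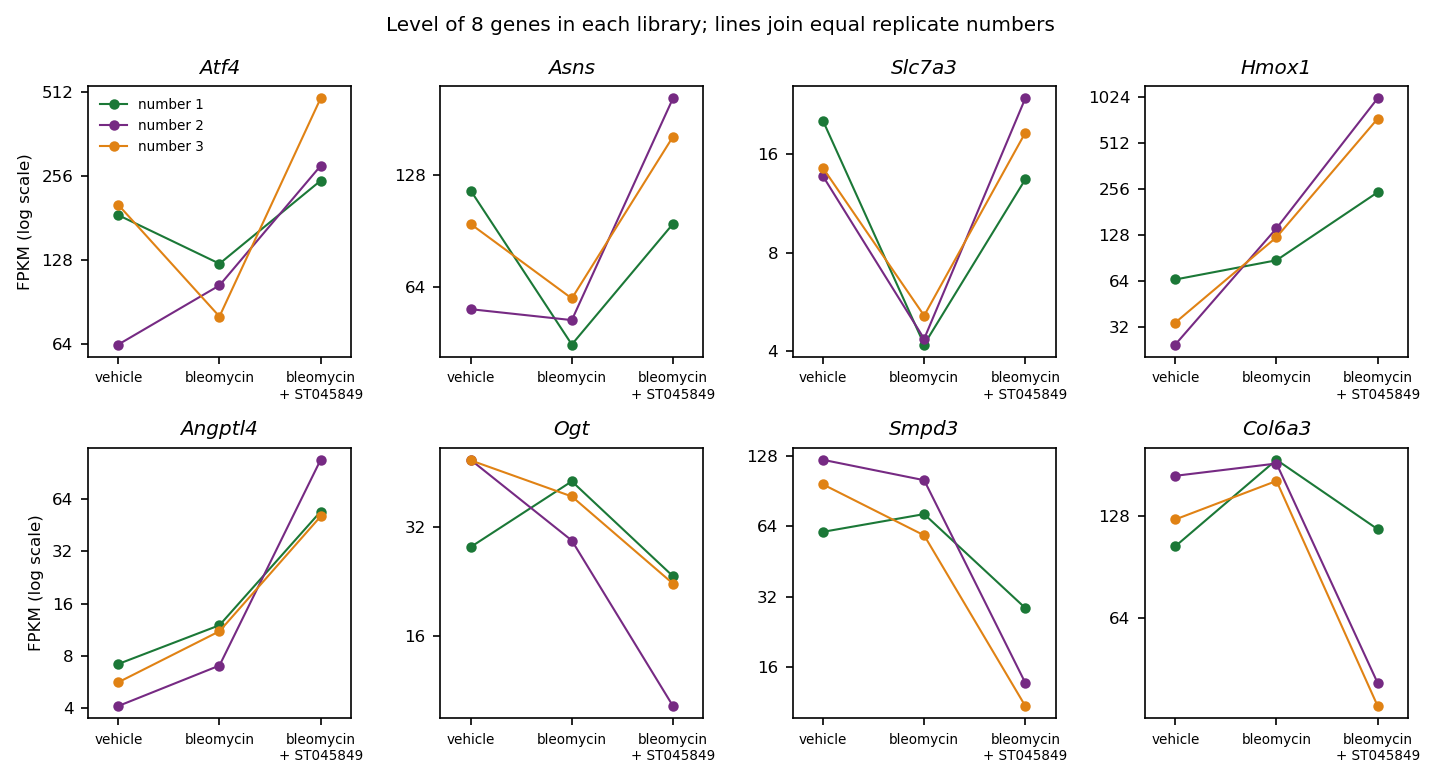
FPKM of 8 genes in each of the 9 libraries on log scales, by treatment group, with lines joining libraries of equal number. Atf4, Asns, Slc7a3, Hmox1 and Angptl4 are higher, and Ogt, Smpd3 and Col6a3 lower, in each inhibitor library than in each bleomycin library.

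Antioxidant genes were mostly higher, and some genes of iron handling with them. Hmox1, the inducible heme oxygenase that opens the heme ring and frees its iron (chromosome 8, 75093621 to 75100589), stood at 87.2, 141 and 123 FPKM with bleomycin and at 243, 1002 and 737 FPKM with the inhibitor, and vehicle libraries held 65.2, 24.5 and 34.1 FPKM. The 3 groups therefore did not overlap, with the inhibitor group highest, and the rise over bleomycin was 2.29 ± 0.26 (paired adjusted p = 0.00215, length-removed 0.0252, unpaired 0.229). Of 33 tested genes of NRF2, glutathione and thioredoxin 15 rose, 1 fell (the efflux pump gene Abcc1), 29 were higher and 6 passed both fits. The 15 became 8 without number 2, 5 without number 3 and 5 with TPM scaling. Of all 12180 genes tested 171, 126 and 58 rose in these 3 fits. Gsta4, a glutathione transferase that clears lipid aldehydes, stood at 8.57, 12.03 and 10.8 and then at 17.9, 60.6 and 44.3 FPKM (1.72 ± 0.24), and Gstm1, of the mu class of these enzymes, at 27.4, 21.1 and 17.3 and then at 46.2, 81.1 and 47.0 FPKM (1.34 ± 0.23). Outside the list Gsta1 was among the 10 largest rises, from 0.429, 1.38 and 0.475 to 1.77, 13.3 and 4.38 FPKM. Mt1, a metallothionein that binds zinc, rose by 1.47 ± 0.24, but its groups overlapped, at 78.6, 148 and 275 against 145, 638 and 740 FPKM. Not every gene of the list moved: Gpx1, a glutathione peroxidase, went from 186 to 52.95 FPKM in number 1 but from 34.8 to 75.7 and from 241 to 345 FPKM in the others, and Txnrd1 and Gclc, of thioredoxin reduction and glutathione synthesis, did not pass.

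Both ferritin chains, the iron store of the cell, were higher in each inhibitor library than in any bleomycin library. Ftl1, the light chain, stood at 1210, 1542 and 943 FPKM and then at 1973, 5854 and 3362 FPKM (1.49 ± 0.29), and Fth1, the heavy chain, at 1480, 1303 and 1095 and then at 2384, 3852 and 3359 FPKM (1.29 ± 0.27). They passed both fits (length-removed adjusted p = 0.0495 and 0.0461), and the paired call was lost without number 2 (0.051 and 0.0665) or number 3 (0.0871 and 0.143). Ftl1 shares part of its exon sequence with other annotated genes, so its count is less certain. The list of heme and iron handling did not shift as a whole, with 9 of 16 genes higher and a median of 0.09, beside 6744 of 12180 and 0.06 for all genes tested. Of the 16 genes 4 rose (1 without number 2 or 3), with Blvrb beside these 3, and Ireb2, an iron sensor, fell; the iron exporter gene Slc40a1 did not pass (-0.46 ± 0.20).

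Among lipid genes, Angptl4, a secreted inhibitor of lipoprotein lipase (chromosome 17, 33773750 to 33781830), had the largest rise of the genes named by size. It stood at 12.03, 7.05 and 11.1 FPKM with bleomycin and at 54.2, 108 and 50.8 FPKM with the inhibitor, and at 7.2, 4.13 and 5.65 FPKM in vehicle. The rise of 2.65 ± 0.29 came from all 3 pairs (2.08, 3.75 and 2.10) and passed both fits (paired adjusted p = 0.00215, length-removed 0.0291), but not the unpaired fit (0.169). Of 19 targets of the PPAR receptors and related lipid genes 7 rose and none fell, with a median of 0.40, and 2 rose without number 2 or 3 and 1 with TPM scaling. Of these, Ucp2, an uncoupling protein of the mitochondrial membrane, passed both fits too (0.77 ± 0.19), a paired call lost without number 2 or 3 (adjusted p = 0.0939 and 0.0616) and with TPM scaling (0.0939), and Acot2, a mitochondrial thioesterase, rose by 1.18 ± 0.21 without passing with length removed (0.055). Genes of cholesterol synthesis and its control lay mostly lower, with a median of -0.25. Among the 25 genes tested, the synthesis gene Hsd17b7 was one of those that fell and Ebp, another synthesis gene, rose, and none passed with length removed. Hmgcs1, at the entry of the pathway, did not pass (-0.63 ± 0.23, paired adjusted p = 0.0698).

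**Figure D3:**
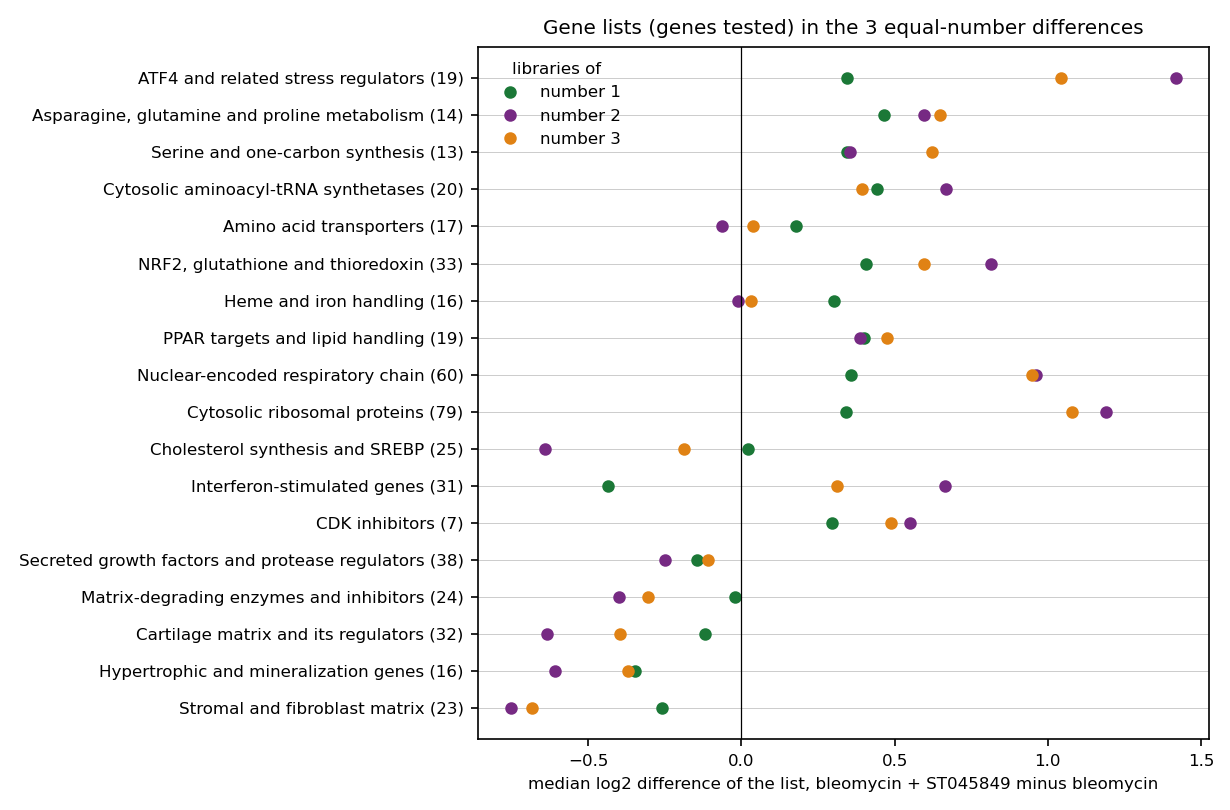
Median log2 difference (bleomycin plus ST045849 minus bleomycin) of 18 gene lists, 1 point for each equal-number pair, with the number of genes tested in brackets. Pair 1 lies nearer 0 than pairs 2 and 3 for the ATF4, respiratory chain, ribosomal, cartilage and stromal lists, and the interferon list changes sign between pairs.

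The most uniform lists were those of short housekeeping genes. All 79 genes of cytosolic ribosomal proteins were higher and 71 rose, with a median of 0.87, and all 60 nuclear-encoded genes of the respiratory chain were higher and 44 rose, with a median of 0.78. The corresponding medians in pairs 1, 2 and 3 were 0.34, 1.19 and 1.08 for the ribosomal list and 0.36, 0.96 and 0.95 for the respiratory list. With length removed 3 ribosomal and 6 respiratory genes passed, while 78 of 79 and 60 of 60 were still higher. The list medians in that fit were 0.505 and 0.382, beside 0.013 for all genes tested. Without the libraries of number 2 the paired fit called 2 ribosomal and 5 respiratory genes, and without number 3 it called 0 and 3. With TPM scaling it called 2 and 3, with list medians of 0.59 and 0.50, beside -0.19 for all genes tested. Among the genes that passed both fits were Uqcrq, a subunit of complex III (42.2, 59.1 and 52.0 and then 67.6, 207 and 141 FPKM, 1.29 ± 0.23), and Atp5g1, of the ATP synthase ring (27.8, 38.9 and 26.2 and then 42.6, 122 and 67.7 FPKM, 1.18 ± 0.22). Rps25 and Rps20, of the small ribosomal subunit, passed both as well, with the paired call lost without number 3 (0.0643 and 0.0542).

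These lists hold short genes, with a median exon length of 1770 bases for the ribosomal and 1870 bases for the respiratory list against 4269 bases for all tested genes. Exon length went with the difference among the tested genes. When the genes were put into 10 groups of nearly equal size by exon length, the group of the shortest (median 816 bases) had a median log2 difference of 0.54 and 44.0% of its genes rose. In the group of the longest (median 12230 bases) the median was -0.47 and 35.3% fell. The slope of each library's level on log2 exon length, centred on the mean of the 6, was 0.12, 0.06 and 0.12 in bleomycin libraries 1, 2 and 3 and 0.04, -0.21 and -0.13 in inhibitor libraries 1, 2 and 3. The groups did not overlap, and the difference of -0.20 had p = 0.1 by an exact two-sided permutation test, the smallest that 3 libraries against 3 allow. With no filter on low values that difference was -0.042. The slopes of the 3 equal-number differences were -0.09, -0.27 and -0.25, so pair 1 had the same direction and a weaker slope. The genes that rose in the paired fit had a median exon length of 1752 bases and those that fell 8599 bases. With the trend removed the medians were 5919 and 3300 bases. Whether RNA integrity differed between the libraries was not tested, and no gene of the mitochondrial chromosome was listed.

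**Figure D4:**
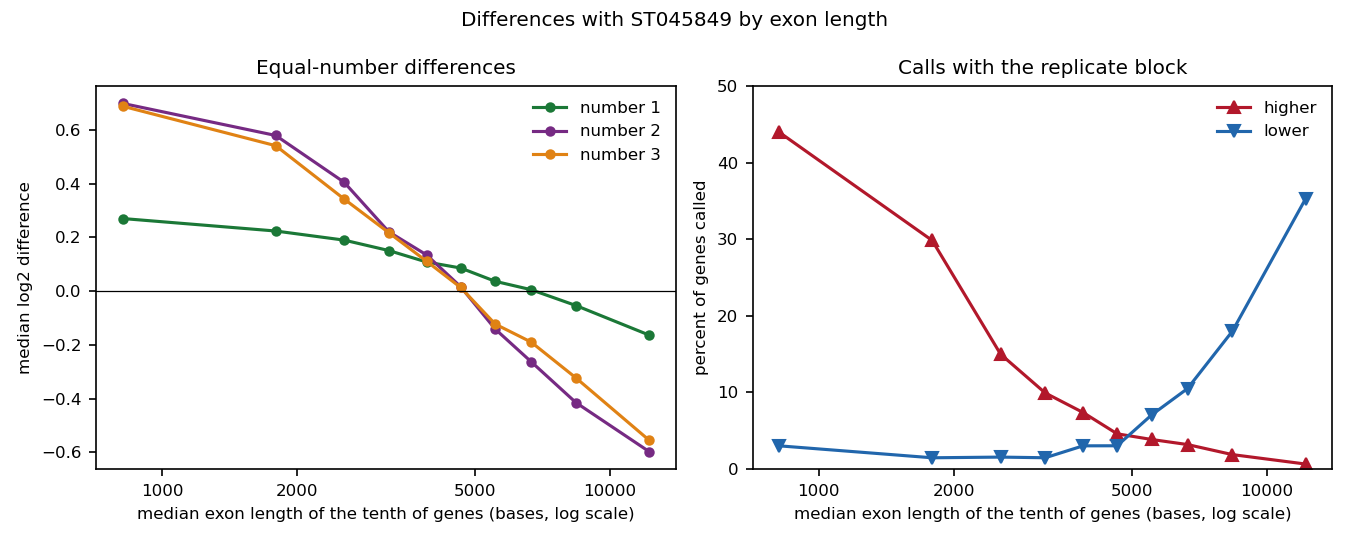
Left, median log2 difference (bleomycin plus ST045849 minus bleomycin) of 10 groups of genes ordered by exon length, for each equal-number pair. Right, percent of genes in each group called higher or lower in the paired fit; the share called higher falls from 44.0% to 0.657% and the share called lower reaches 35.3%.

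Ogt, the gene of the enzyme the compound inhibits, was lower. It lies on chromosome X (101640060 to 101684351), and stood at 42.7, 29.3 and 38.8 FPKM with bleomycin and at 23.4, 10.3 and 22.3 FPKM with the inhibitor, without overlap. Vehicle libraries held 28.1, 48.9 and 48.7 FPKM. Ogt fell by 1.01 ± 0.20 (paired adjusted p = 0.0139, and 0.0518 without number 2), a call not kept with length removed (-0.76, adjusted p = 0.054), and its exons span 8045 bases. Ogt was the only one of 13 genes of O-GlcNAc cycling and the hexosamine pathway to pass. Oga went from 21.3, 24.4 and 25.3 to 21.6, 14.0 and 27.2 FPKM (-0.21 ± 0.21, paired adjusted p = 0.48). Gfpt1, at the entry of the hexosamine pathway, went from 39.9, 37.2 and 43.0 to 43.7, 18.8 and 36.1 FPKM (-0.36 ± 0.22, adjusted p = 0.253), with its only clear step in number 2.

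Genes of mineralizing cartilage and of stromal matrix were mostly lower, with 4 of 16 and 4 of 23 tested genes of these lists higher. Smpd3, a neutral sphingomyelinase needed for skeletal mineralization (chromosome 8, 106252548 to 106337988), stood at 72.1, 101 and 58.5 FPKM with bleomycin and at 28.6, 13.7 and 10.9 FPKM with the inhibitor. It fell by 2.14 ± 0.25 and passed both fits (paired adjusted p = 0.00295, length-removed 0.0265). Ibsp, the bone sialoprotein, fell in each pair, from 83.3 to 42.2, from 22.1 to 5.62 and from 26.8 to 11.8 FPKM (-1.29 ± 0.21), although the groups overlapped because number 1 was highest in both. Of the 16 hypertrophic and mineralization genes 8 fell and none rose, and Phospho1, which frees phosphate for mineral, passed both fits beside these. Col10a1, Runx2, Mef2c, Dmp1 and Enpp1 fell in the paired fit alone. The 8 became 2 without number 2, 3 without number 3 and 2 with TPM scaling.

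In the stromal list of 23 genes 8 fell, none rose and the median was -0.51, and 1 fell without number 2, 2 without number 3 and 4 with TPM scaling. Col6a3, a chain of the beaded-filament collagen VI, stood at 188, 184 and 163 and then at 117, 41.0 and 35.1 FPKM (-1.67 ± 0.27), and Lox, which crosslinks collagen, at 782, 552 and 945 and then at 469, 127 and 422 FPKM (-1.34 ± 0.26). Both passed both fits, and the call of Lox was lost without number 2 (adjusted p = 0.0673). Fn1, fibronectin, went from 6325, 6665 and 7199 to 4354, 3151 and 2410 FPKM without overlap (-1.07 ± 0.29), and Fbn1, Tnc, Col3a1, Pdgfra and Postn also fell, these without passing once length was removed. Exons of the list are long (median 7290 bases). Fndc1, a fibronectin-domain protein among the 10 largest falls, passed both fits (63.4, 47.9 and 54.2 and then 38.4, 6.98 and 8.67 FPKM).

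Of 32 cartilage matrix genes 8 fell, none rose and 7 were higher (median -0.35), and 1 fell without number 2, 2 without number 3 and 3 with TPM scaling. Matn3, a matrilin of growing cartilage, was the only member to pass both fits, at 102, 106 and 79.0 and then at 65.5, 24.5 and 43.9 FPKM (-1.18 ± 0.26, paired adjusted p = 0.0167, and 0.0733 without number 2). Vcan, Hapln1 and Col11a1 fell in the paired fit. The main structural genes did not pass: Col2a1, the collagen of cartilage, went from 15200, 18520 and 12440 to 14290, 14700 and 9477 FPKM (-0.27 ± 0.30, adjusted p = 0.521), and Acan, aggrecan, from 619, 693 and 546 to 558, 384 and 292 FPKM (-0.63 ± 0.23, adjusted p = 0.0672). Sox9, their main activator, was lower in numbers 2 and 3 only (-0.57 ± 0.23, adjusted p = 0.0907).

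Markers of cell types were followed beside these lists. The 8 chondrocyte markers summed to 17590 to 24990 FPKM in the bleomycin and 13920 to 20670 FPKM in the inhibitor libraries, and 3 of the 8 fell. The 7 fibroblast markers summed to 2577 to 3698 and 1449 to 2832 FPKM, and 2 of the 5 tested fell. The 10 macrophage markers summed to 10.9 to 12.6 and 11.9 to 18.0 FPKM, with C1qb, C1qc and Tyrobp at 0 in all 6 libraries. The 5 endothelial markers stayed below 1 FPKM in sum, and of the adipocyte markers Fabp4 rose (0.83 ± 0.21), at 16.5, 13.3 and 11.2 and then 22.1, 22.8 and 30.3 FPKM. That call was lost without number 2 or 3 (adjusted p = 0.0542 and 0.269). Fabp4 was the only 1 of the 4 adipocyte markers tested and did not pass with length removed. The 5 osteoclast markers summed to 14.8 to 23.2 FPKM in the bleomycin and 19.2 to 32.2 FPKM in the inhibitor libraries, higher in each pair, and of the 2 tested Ctsk rose (0.59 ± 0.17), a call lost without number 2 or 3. The part of cell composition in the results above was not tested.

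**Figure D5:**
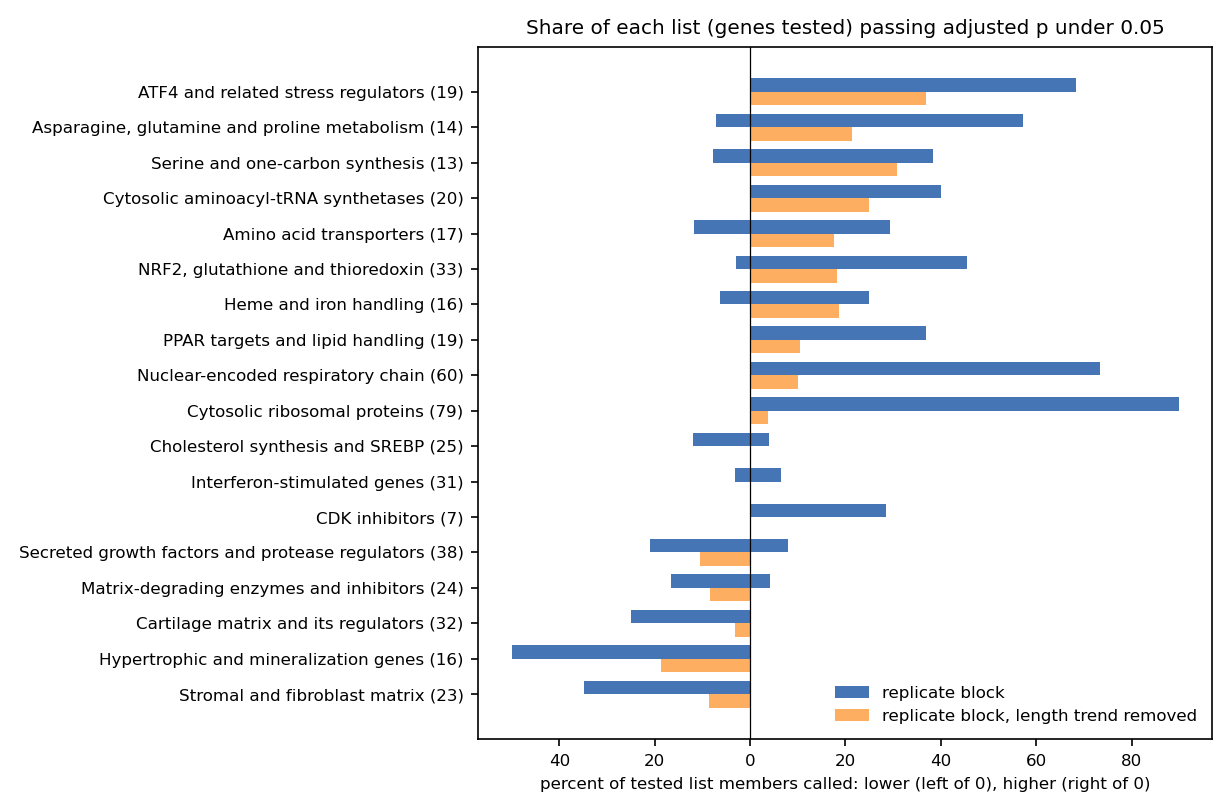
Percent of the tested members of 18 gene lists that passed an adjusted p of 0.05 in the paired fit (blue) and in the paired fit with the length trend removed (orange), lower to the left and higher to the right of 0. The ribosomal and respiratory lists go from 71 of 79 and 44 of 60 called to 3 and 6, and the ATF4 list from 13 to 7 of 19.

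Among genes of senescence and its secretions, 6 of 7 CDK inhibitor genes were higher (median 0.42) and 11 of 38 secreted growth factors and protease regulators were (median -0.21). Of all genes tested 6744 of 12180 were (median 0.06). With length removed 4 of the 7 CDK inhibitor genes were higher (median 0.28), beside an all-gene median of 0.01. With TPM scaling 4 were (median 0.14), beside -0.19. Cdkn1a, the CDK inhibitor p21, stood at 243, 331 and 364 and then at 299, 534 and 442 FPKM (0.42 ± 0.21, paired adjusted p = 0.158). Cdkn2a, for p16 and p19Arf, rose from 6.85, 4.67 and 4.26 to 9.58, 8.45 and 11.2 FPKM (0.80 ± 0.20) and Cdkn2b, for p15, from 29.1, 24.7 and 33.1 to 45.2, 51.6 and 56.9 FPKM (0.80 ± 0.19). Their groups did not overlap, with paired adjusted p of 0.0237 and 0.019, but neither passed with length removed (0.255 and 0.174), with TPM scaling, or without number 2 or 3. Mdm2, the ubiquitin ligase of p53, changed by -0.10 ± 0.19 and Lmnb1, of the nuclear lamina, by -0.03 ± 0.19, neither passing. Of 33 genes of p53 and its targets 3 rose and 2 fell, and of 26 mitotic and lamina genes 2 fell. Among all tested genes 12.0% rose and 8.45% fell. Mki67 and Il6 did not reach the filter, and Il6 stayed below 0.1 FPKM in all 6 libraries.

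Of 24 matrix-degrading enzymes and their inhibitors 4 fell and 1 rose, and 0 did so without number 2 or without number 3. Among all tested genes 8.45% fell and 12.0% rose with all 3 pairs. Without number 2 it was 249 and 171 of 12180 genes, and without number 3 it was 246 and 126. Mmp3, stromelysin, went down in each pair, from 47.2 to 29.98, from 17.0 to 8.39 and from 12.2 to 9.04 FPKM (-0.66 ± 0.19), and passed both fits (paired adjusted p = 0.0344, length-removed 0.0388), a call lost without number 2 or 3 (0.17 and 0.125). Htra1, a serine protease of the matrix, fell from 186, 234 and 290 to 128, 143 and 167 FPKM and also passed both, likewise lost without number 2 or 3 (0.119 and 0.28). Mmp13, a collagenase, was lower in number 2 alone (530, 277 and 299 and then 564, 145 and 318 FPKM) and did not pass (paired adjusted p = 0.469). Of 20 cytokine and chemokine genes 1 rose, Mif, and 8 were higher (median -0.10). With length removed 2 were higher (median -0.28) and 1 passed, Cxcl14, a chemokine, which was lower.

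Among 38 secreted growth factors and protease regulators 8 fell and 3 rose, and 3 fell and 0 rose without number 2 or without number 3. Fgf2, basic fibroblast growth factor, went from 10.1, 3.05 and 5.38 to 0.646, 0.0772 and 2.20 FPKM (-1.89 ± 0.27), and 9.44% of its exon sequence is shared with Nudt6 on the opposite strand. Inhba, a subunit of activins, fell from 8.37 to 2.71, from 2.23 to 0.858 and from 6.89 to 2.21 FPKM (-1.14 ± 0.19). Grem1, a BMP antagonist, and Wif1, a Wnt antagonist, fell by 0.92 and 1.15. These 4 genes passed both fits, and so did Ptgs2, cyclooxygenase 2 (-0.85 ± 0.18), and Ahr, the aryl hydrocarbon receptor (-1.13 ± 0.22), whereas Cyp1b1, its classical target, did not pass (0.22 ± 0.19, paired adjusted p = 0.404). Inhba and Fgf2 were called whichever pair was left out, while the calls of Wif1, Ptgs2 and Ahr were lost without number 2 (0.0501, 0.0648 and 0.051) and that of Grem1 without number 3 (0.0846).

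Interferon-stimulated genes differed between pairs in direction, with list medians of -0.43, 0.67 and 0.31 in pairs 1, 2 and 3. Isg15, whose product is attached to proteins much like ubiquitin, passed from 50.2 to 36.2 FPKM in number 1, from 27.2 to 132 in number 2 and from 9.46 to 24.6 in number 3, and did not pass (1.02 ± 0.37, paired adjusted p = 0.0651). Of 31 tested genes 2 rose and 1 fell, beside 12.0% and 8.45% of all tested genes.

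Across all tested genes 4467 (36.7%) were higher in all 3 equal-number pairs and 2809 (23.1%) lower, and in 2038 (16.7%) the 3 inhibitor libraries lay above and in 1044 (8.57%) below the 3 bleomycin libraries. A difference of at least 2-fold was met by 1.76% of genes in pair 1, 13.9% in pair 2 and 9.61% in pair 3. Only 16 genes were at least 2-fold higher in all 3 pairs, among them Angptl4, Asns, Chac1, Cth, Hmox1, Nupr1, Phgdh, Psat1 and Slc7a3, all described above, and 16 were at least 2-fold lower, among them Smpd3 and Fam168a. Of the 377 genes at least 2-fold higher in both pair 2 and pair 3, 354 were also above 0 in pair 1, with a median there of 0.41. Of the 258 at least 2-fold lower in both, 235 were below 0 in pair 1 (median -0.36). These genes were chosen by pairs 2 and 3, so their smaller medians in pair 1 follow in part from that choice. The median of all tested genes in pair 1 was 0.09. Over all tested genes the median absolute difference was 0.20, 0.48 and 0.41 in pairs 1, 2 and 3. Other genes with the largest differences were Cyb5r2, a cytochrome b5 reductase, which rose from 3.41, 2.74 and 3.55 to 9.8, 28.6 and 17.1 FPKM and passed both fits, and Fam168a, which fell from 22.3, 15.7 and 16.6 to 10.4, 3.01 and 3.19 FPKM and passed both. Kirrel and Emp1 fell in the paired fit alone, and Emp1 hardly moved in number 3 (213.5 to 208.5 FPKM). Chtf8, Pcdhgb4, Pcdhga2, Gm21983 and Gm27927 also ranked there, but 38.3% to 100% of their exon sequence is shared with other genes on the same strand, so their values are uncertain.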

How the data were processed

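Per the labels' protocols, mRNA was sequenced from libraries of a strand-specific kit. Trimmomatic, STAR and GRCm38 are named in the submitters' processing notes, without versions. What the authors deposited is FPKM for each gene, that is, fragments scaled by gene length and library size. The counting program, its annotation, its use of strand and its denominator are unknown here. FPKM is not a count, and whole fragments could not be recovered: of the low values, 33.8 to 45.1% fell on a whole step (tolerance 0.02), where chance gives 4%, and these steps put the depths at 0.88 to 1.01 times that of bleomycin library 1. The steps of the other libraries were sought only near that of bleomycin library 1, so a large difference in depth could not have shown. FPKM summed to 356573 to 370089 in the bleomycin and 382247 to 483953 in the inhibitor libraries.

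The members, lists, tests and alternatives were chosen with earlier results of these data known. limma 3.58.1 in R 4.3.3 was run on log2(FPKM + 1), with variances that follow the mean (4 residual and 5.43 prior degrees of freedom, or 2 and 10.2 with the block), and was tested on simulated data. All adjusted p in the text are from limma. Replicate numbers were taken to pair the libraries because the 3 equal-number correlations of deviations between the 2 groups compared exceeded 0.1. Those with vehicle libraries 1 and 2 did not, and the pairing comes from the data, not the labels. Exon length, coordinates and exon overlap came from GENCODE vM21, which gave a length for 12176 of the 12180 genes; 260 identifiers were not in it. The length trend was a loess curve (span 0.5) of each library's deviation from the gene mean on log2 exon length. Deposited row names gave the symbols. Genes named with values are the 10 largest rises and falls by the unpaired difference (mean of at least 5 FPKM, groups apart, 3 pairs of one sign), up to 4 members per direction of each list by paired p and the member with the highest mean, and 24 fixed genes; other list members are named beside a count. Alternatives were other pseudocounts, filters, scalings, variance models and fits, and leaving out each library or pair. The fits with TPM and a block, and the length-removed fits with a pair left out, were added after seeing the data, as were list counts under other fits. A few list members that were called are not reported here.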

Additional observations from a re-analysis of the deposited data

How the results depend on the processing

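Whether depth differed widely between libraries could not be settled from FPKM. The limits that were seen lie in 3 pairs of unequal response, in a pairing read from the data and in the length trend. The count of 0 without a block stayed 0 under each scaling, pseudocount, filter and variance model tried; it was 1 (up) in a fit of all 9 libraries, and 0 to 2430 when single libraries were left out (0 to 1565 up and 0 to 865 down). With the replicate block it was 2496 (1467 up, 1029 down), and 0 with all 9 libraries and the block. From 2496, removing the length trend left 250 (124 up, 126 down) and a length slope 444 (182 and 262). Median-of-ratios scaling with the block gave 924 up, TPM with the block 424 (58 and 366), and a mean of at least 5 FPKM with the block 656 down. Leaving out 1 pair gave 372 to 4158 (126 to 2380 up, 246 to 1778 down), and with length also removed 5 to 1784 (2 to 897 and 3 to 887). Of 281 named genes 133 passed with the block, 55 with length also removed and 0 without either; Gpx1 alone changed sign with a call, from -0.06 to 0.81 without pair 1, and lay between -0.91 and 0.81 over all fits with libraries left out. The difference in length slope, -0.20, was -0.27 at a mean of at least 5 FPKM, -0.042 with no filter and -0.24 with the longest transcript. The causes of these shifts were not tested.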

Other observations

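Heat shock genes lay higher and 4 of 17 passed in the paired fit, none passed with length removed, without number 2, without number 3 or with TPM scaling. Hspa9, the mitochondrial HSP70, rose from 124, 146 and 170 to 184, 218 and 282 FPKM (0.62 ± 0.19), and its mitochondrial partner Hspe1 from 65.1, 77.1 and 91.8 to 87.9, 156 and 189 FPKM (0.82 ± 0.20). The cytosolic small heat shock genes Hspb1 and Cryab rose as well. The median of the list was 0.34.

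Of 19 genes of the response to double-strand breaks, 3 fell and 1 rose in the paired fit, and none passed with length removed. Among all tested genes 8.45% fell and 12.0% rose in the paired fit. Atm, the kinase that signals breaks, fell from 2.45, 1.54 and 2.66 to 1.62, 0.505 and 0.679 FPKM (-0.76 ± 0.18), and Trp53bp1 and Prkdc fell with it. H2ax, the histone that is phosphorylated at breaks, went the other way, from 9.37, 12.7 and 15.8 to 13.5, 24.3 and 25.2 FPKM (0.67 ± 0.19). None of the calls of Atm, Trp53bp1, Prkdc and H2ax was kept without number 2, without number 3 or with TPM scaling. Of 27 lysosomal genes 2 rose, Neu1 and Atp6v0d1, beside 12.0% of all tested genes, and neither did so without number 2 or 3.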
